A study of Homo sapiens with 15 samples.

Results

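A fixed list of 45 genes of the Wnt pathway was followed across 3 fractions of PEO1 cells, an established human line of ovarian cancer, separated by flow sorting. The list was set by name and by no measured value, but earlier results of these data were known when it was chosen. It holds ligands, their receptors and the regulators between the receptor and the nucleus. Of the 45 genes, 42 were measured, out of 19775 genes in the whole data set. WNT3 and FZD8 lie only on probe sets that several genes share, so they were left out, and TCF7 is unnamed in the annotation used here. SFRP4, ROR2 and LGR5 are among the 42 but read at or under an intensity of 16 on all 15 arrays, which is the floor set here, and a gene at the floor cannot show a fall. Parental PEO1 cells were grown in RPMI-1640 with serum and no other treatment, then stained for the surface proteins CD90 and CD133 and sorted. The first group carried neither protein (CD90-/CD133-), the second CD90 alone (CD90+/CD133-) and the third both (CD90+/CD133+). Each had 5 arrays, numbered as replicates 1 to 5. All come from a single cell line, so replicates are sorts of that line and not tumours, and biological replication is stated in the methods for only the first 2 of these groups. Where nothing states separate cultures, a p-value measures only the spread between those arrays.

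Wnt ligands are secreted lipid-modified proteins that bind a Frizzled (FZD) receptor, alone or together with the co-receptors LRP5 and LRP6. In the canonical branch this disables a destruction complex built from APC, AXIN and GSK3B, so that beta-catenin (CTNNB1) accumulates and works with TCF/LEF factors in the nucleus, while other branches act on the cytoskeleton and on calcium without beta-catenin. Secreted antagonists of the SFRP and DKK families hold the pathway back outside the cell, and the RNF43/ZNRF3 ubiquitin ligases remove Frizzled receptors from the surface unless LGR receptors and R-spondins intervene. In epithelial cancers the pathway is studied for its part in stem-like growth.

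RNA intensity is given as the authors normalized it, as a linear probe-set value. Probe sets differ in brightness for their own reasons, so a level is compared between fractions and never between genes. The sort was checked first. THY1, which encodes CD90, had a geometric mean of 76.2 without either protein (CD90-/CD133-), 971 with CD90 alone and 1417 with both, and PROM1, which encodes CD133, had 21.4, 42.2 and 876. The epithelial markers EPCAM, KRT7 and PAX8 were detected on every array, although SOX17 was at the floor on all of them. The summed level of the 14 epithelial markers was 52761 to 67181, 37411 to 50770.1 and 33600.1 to 48513 in the same order, with 2 of them higher and 6 lower in either CD90+ fraction than in CD90-/CD133- cells. Of 12 fibroblast markers, COL3A1, LUM, PDGFRA and POSTN were at the floor throughout, 2 were higher and 1 lower in CD90+/CD133- cells, and their sums overlapped between fractions at 1318 to 4637, 1585 to 4387 and 1339 to 2318. Of 5 leukocyte markers PTPRC and LYZ were at the floor on all arrays, and CD14 was higher in both CD90+ fractions, with geometric means of 56.0, 109 and 112, while CD3E and ITGAM were above the floor and did not pass. Their summed level was 162 to 183.0, 203 to 263 and 189.8 to 286 in the same order. Of 6 endothelial markers CDH5 and KDR were at the floor throughout and none passed, with sums of 153 to 176, 155 to 172 and 165 to 192. The part of other cell types in the results was not tested. The gap between 3' and 5' control probes of GAPDH, which widens with RNA degradation, averaged 0.0565 (log2) in the CD90-/CD133-, 0.186 in the CD90+/CD133- and 0.0498 in the CD90+/CD133+ fraction. The same gap for ACTB was larger and averaged 1.84, 2.46 and 1.70 in the same order. It ranged from 1.31 to 2.17, 1.82 to 3.31 and 1.03 to 2.76.

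CD90+ PEO1 cells carried more RNA of the secreted antagonists DKK1, SFRP1 and DKK3 and of the receptors FZD7 and FZD5, and less RNA of the ligands WNT5A, WNT7A, WNT7B and WNT9A and of the receptor FZD10. These changes were found in each CD90+ fraction against the CD90-/CD133- fraction, but both comparisons rest on the same 5 CD90-/CD133- arrays and are not independent of each other. In CD90+/CD133- cells 13 of the 42 genes were higher and 8 were lower. In CD90+/CD133+ cells 11 were higher and 8 were lower. A gene was called at an adjusted p under 0.05 (limma, all 15 arrays, replicate number as a block, Benjamini-Hochberg over 19775 genes). In bulk RNA, fewer cells that express a gene and less RNA per cell cannot be told apart.

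These counts have to be read against many changes elsewhere. Of all genes, 14.8% were called higher and 17.6% lower in CD90+/CD133- cells, and 14.2% and 17.0% in CD90+/CD133+ cells. Of the 42 genes, 21 and 19 were called in these comparisons (45.2% for the second), against 32.4% and 31.2% of all genes in either direction. Brighter genes, those with a mean log2 intensity of at least 6, were called more often. Of the 31 listed genes that bright, 19 and 17 were called (61.3% and 54.8%), against 52.7% and 50.7% of all 9988. Nothing particular to the list is read from these shares. The median absolute log2 fold change was 0.31 over the 42 genes, 0.13 over all genes and 0.28 over brighter genes in CD90+/CD133- cells (0.28, 0.13 and 0.26 in CD90+/CD133+ cells). Without the replicate block, 7 were higher and 5 lower in CD90+/CD133- cells, where 10.5% and 11.9% of all genes were called, and 6 were higher and 4 lower in CD90+/CD133+ cells, where 9.52% and 11.0% were.

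With the GAPDH gap as a covariate beside the block, a fit added after the data were seen, 5 genes were higher and 5 lower in CD90+/CD133- cells. Over all 19775 genes the calls fell as well, from 2924 higher and 3475 lower to 1300 and 1434. WNT5A, WNT7A, WNT9A, WNT16, FZD5, FZD10, SFRP1, DKK1, CTNNB1 and ZNRF3 passed in this fit, with WNT9A at -0.43 and WNT16 at -0.49 on the log2 scale. WNT7B, FZD4, FZD6, FZD7, LRP6, DKK3, APC, TCF7L1, TCF7L2, LEF1 and LGR4 did not (adjusted p from 0.0728 for APC to 0.387 for LRP6). The gap was 0.0902 to 0.268 on CD90+/CD133- and 0.0233 to 0.0932 on CD90-/CD133- arrays, so it cannot be cleanly told apart from the fraction.

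**Figure D1:**
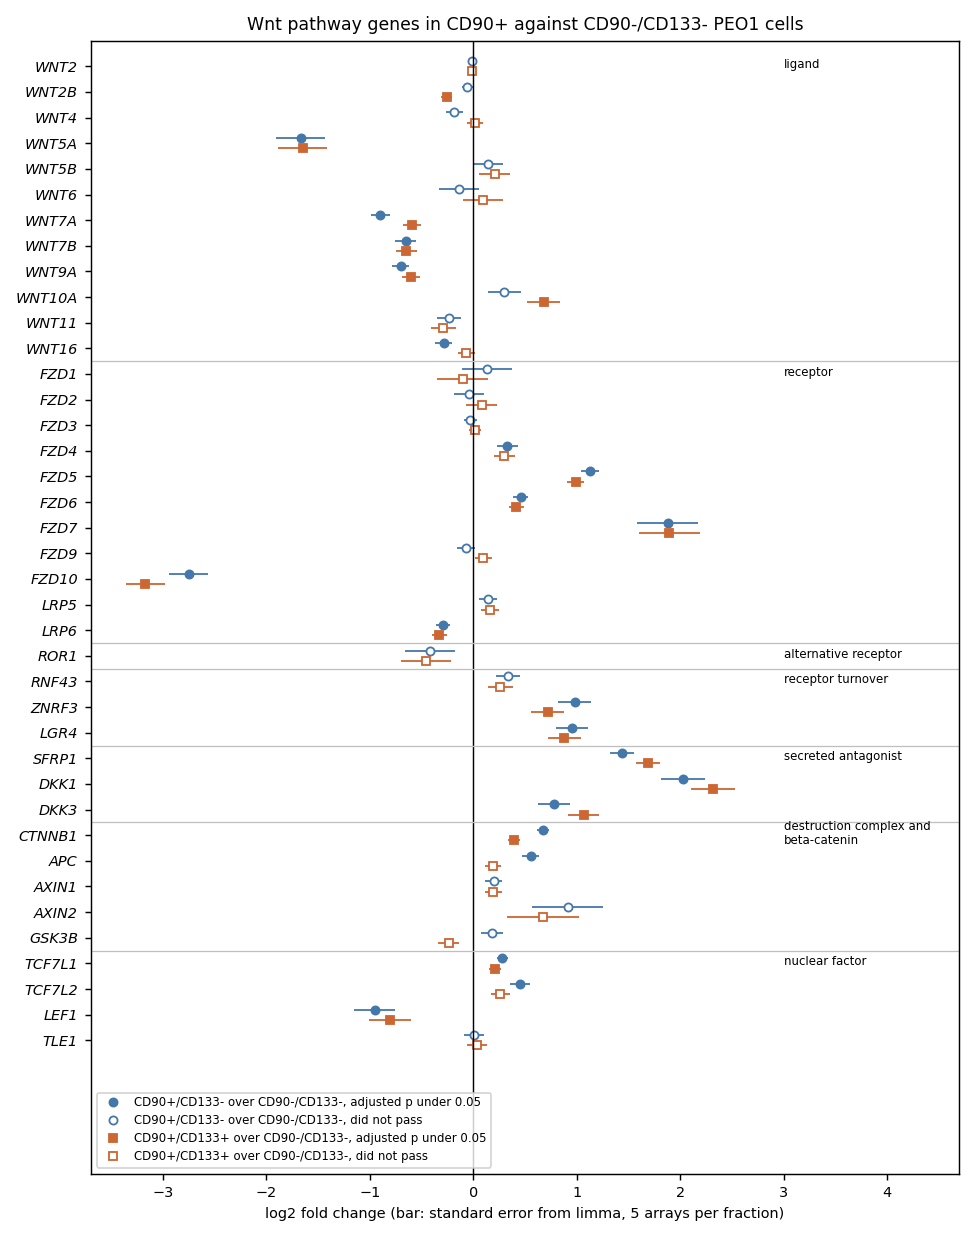
Log2 fold change (horizontal axis) of the 39 Wnt pathway genes that were above the floor on any array, grouped by role, in CD90+/CD133- (circles) and CD90+/CD133+ cells (squares) over CD90-/CD133- cells, with bars for the limma standard error and filled symbols for an adjusted p under 0.05. FZD10 lies farthest to the left at -2.75 and -3.17, and DKK1 farthest to the right at 2.03 and 2.32.

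Among 12 measured ligands, 5 fell and none rose in CD90+/CD133- cells, while 5 fell and WNT10A rose in CD90+/CD133+ cells. Of all genes 17.6% and 17.0% were called lower in these comparisons and 14.8% and 14.2% higher. Of brighter genes 27.5% and 26.0% were lower and 25.3% and 24.6% higher. Without the block 4 and 3 of the ligands fell and none rose. WNT5A, which mostly signals without beta-catenin, lay at 61.5, 147, 150.4, 174 and 114 on the CD90-/CD133- arrays (replicates 1 to 5 here and below), at 41.4, 35.4, 47.4, 37.0 and 32.3 on the CD90+/CD133- arrays and at 26.8, 53.2, 51.2, 31.8 and 38.3 on the CD90+/CD133+ arrays. Every CD90-/CD133- array was above every CD90+ array, with replicate 1 the lowest of its group. The fall was 3.18-fold in CD90+/CD133- cells (log2 change -1.67 with a standard error of 0.234, adjusted p = 0.000705, limma) and 3.14-fold in CD90+/CD133+ cells (log2 change -1.65 with a standard error of 0.234, adjusted p = 0.000758). The gene's other probe set, at 30.9 in CD90-/CD133- cells, read 16 and 16.3 in the CD90+ fractions.

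WNT7A, a ligand that patterns the female reproductive tract, and its paralog WNT7B moved the same way. WNT7A intensity was 198, 238, 266, 225 and 207 in CD90-/CD133- cells, 122, 132, 152, 125 and 85.5 in CD90+/CD133- cells and 128, 149, 201, 143 and 138 in CD90+/CD133+ cells. The CD90-/CD133- and CD90+/CD133- arrays did not overlap, and replicate 3 was the highest in each fraction. The log2 fold change was -0.90 (standard error 0.0878, adjusted p = 0.000101 from limma) in CD90+/CD133- and -0.59 (standard error 0.0878, adjusted p = 0.000990) in CD90+/CD133+ cells. WNT7B stood at 493, 547, 566, 511 and 456 in CD90-/CD133- cells, at 344, 315, 343, 353 and 281 in CD90+/CD133- cells and at 261, 331, 409.7, 299 and 353 in CD90+/CD133+ cells. Here too all CD90-/CD133- arrays lay above all CD90+ arrays. The fall was 1.57-fold in either comparison (adjusted p = 0.00126 and 0.00134 from limma), and a second WNT7B probe set was lower as well, at 169.7 against 119.2 in CD90+/CD133- cells.

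WNT9A, a ligand of the canonical branch, differed more between replicates than between fractions. Its intensity was 594, 488, 313, 376 and 210.1 in CD90-/CD133- cells, 282, 296, 212, 279 and 127 in CD90+/CD133- cells and 330.4, 297, 218, 307 and 137 in CD90+/CD133+ cells. The groups overlapped, yet each CD90+ array was below the CD90-/CD133- array of the same number. The log2 fold change was -0.70 (standard error 0.0831, adjusted p = 0.000286 from limma) and -0.60 (adjusted p = 0.000663), and it did not pass without the block (adjusted p = 0.177 and 0.271). The other WNT9A probe set was nearly flat in CD90+/CD133- cells, at a log2 fold change of -0.10, and gave -0.41 in CD90+/CD133+ cells. WNT10A, another canonical ligand, was at 188, 255, 323, 365 and 444 in CD90-/CD133- cells, at 226, 335, 532, 348 and 507 in CD90+/CD133- cells and at 209, 382, 762, 491 and 886 in CD90+/CD133+ cells. The fractions overlapped, and replicate 1 was the lowest in each. It rose 1.60-fold in CD90+/CD133+ cells (adjusted p = 0.0106 from limma, higher in 5 of 5 pairs) but not past the threshold without the block (adjusted p = 0.288).

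The other ligand calls were small. WNT16, a ligand known from bone and skin, was at 58.0, 56.4, 58.9, 70.4 and 52.0 in CD90-/CD133- cells and at 54.1, 48.4, 49.3, 45.3 and 44.7 in CD90+/CD133- cells, where only replicate 1 was above any CD90-/CD133- array. It fell by 0.29 on the log2 scale in CD90+/CD133- cells (adjusted p = 0.0242 from limma), a call that was lost when CD90+/CD133- replicate 2, 3 or 4 was left out (highest adjusted p = 0.0626). WNT2B, a canonical ligand close to the floor here, was at 22.2, 23.6, 23.6, 24.7 and 31.7 in CD90-/CD133- cells and at 16.5, 21.1, 20.1, 22.8 and 24.9 in CD90+/CD133+ cells. Each of the latter was below the array of its number, and it fell by 0.26 in CD90+/CD133+ cells (adjusted p = 0.00416, 0.228 without the block). WNT5B and WNT6 reached 218 and 273 at their highest and passed in no comparison. WNT4 and WNT11 were near the floor, reaching 31.4 and 31.9 at their highest, and WNT2 was above the floor on a single array. None of these passed either.

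Receptors changed in opposite directions, with FZD7 and FZD5 higher and FZD10 lower in CD90+ cells. FZD7, a Frizzled known from stem and progenitor cells, had intensities of 56.9, 99.1, 136, 120.4 and 219 in CD90-/CD133- cells, 489, 291, 493, 413 and 470.4 in CD90+/CD133- cells and 596, 333, 359, 386 and 519.8 in CD90+/CD133+ cells. All CD90+ arrays were above all CD90-/CD133- arrays, and replicate 1 changed most. The rise was 3.68-fold in CD90+/CD133- cells (log2 change 1.88 with a standard error of 0.295, adjusted p = 0.00131, limma) and 3.72-fold in CD90+/CD133+ cells (log2 change 1.89 with a standard error of 0.295, adjusted p = 0.00130). The second FZD7 probe set gave 69.8, 258.8 and 254.4 as geometric means in the same order. With the GAPDH gap as a covariate the FZD7 log2 fold change in CD90+/CD133- cells was 1.22 and did not pass (adjusted p = 0.177).

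FZD5, a receptor of epithelia, was at 190.4, 143, 205, 139.5 and 196 in CD90-/CD133- cells, at 353, 359, 373, 385 and 418 in CD90+/CD133- cells and at 347, 326, 361, 299.9 and 384 in CD90+/CD133+ cells. Its CD90+ arrays were tightly grouped and again all above the CD90-/CD133- arrays. It rose 2.18-fold (log2 change 1.13 with a standard error of 0.0840, adjusted p = 2.55e-05, limma) and 1.98-fold (log2 change 0.99 with a standard error of 0.0840, adjusted p = 4.80e-05). A dimmer FZD5 probe set differed less, at 44.6 against 54.8 in CD90+/CD133- cells.

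FZD10 showed the largest fold change of the 42 genes in either comparison with CD90-/CD133- cells. Its intensities were 151, 214, 343, 226 and 474 in CD90-/CD133- cells, 16, 23.4, 93.4, 28.3 and 86.5 in CD90+/CD133- cells and 16, 21.9, 51.2, 23.1 and 48.1 in CD90+/CD133+ cells. The groups were far apart, and replicate 1, the lowest in each fraction, was at the floor in both CD90+ fractions, so the fold is understated there. The fall was 6.74-fold (log2 change -2.75 with a standard error of 0.189, adjusted p = 1.76e-05, limma) and 9.02-fold (log2 change -3.17 with a standard error of 0.189, adjusted p = 9.03e-06), and it passed without the block as well (adjusted p = 0.00267 and 0.00104). Only 1 probe set reads this gene.

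FZD6, a Frizzled of planar cell polarity, was at 861, 961, 1254, 1163 and 1248 in CD90-/CD133- cells, at 1055, 1324, 1699.9, 1672 and 1859 in CD90+/CD133- cells and at 1199.6, 1279, 1508, 1361 and 2003 in CD90+/CD133+ cells. The fractions overlapped, but it was higher in 5 of 5 pairs in either comparison, by 1.37-fold and 1.33-fold (adjusted p = 0.00137 and 0.00249 from limma, 0.0954 and 0.142 without the block). LRP6, a co-receptor of the canonical branch, was at 432, 419.8, 556, 445 and 646 in CD90-/CD133- cells, at 346, 355, 383, 433 and 518 in CD90+/CD133- cells and at 367, 369, 386, 349 and 512 in CD90+/CD133+ cells. It was lower in 5 of 5 pairs, by 0.29 and 0.33 on the log2 scale (adjusted p = 0.0107 and 0.00615, 0.224 and 0.169 without the block). That fall was seen on the brightest LRP6 probe set. The other probe sets gave 93.7 and 80.1 in CD90-/CD133- against 96.9 and 84.5 in CD90+/CD133- cells, and with the mean of all probe sets LRP6 did not pass there (log2 fold change -0.06, adjusted p = 0.451). Nor did it pass there without number 5 in all fractions (adjusted p = 0.0506).

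FZD4, the Norrin receptor, was at 68.9, 87.1, 83.1, 84.7 and 85.2 in CD90-/CD133- cells, at 67.7, 99.9, 125, 103 and 129 in CD90+/CD133- cells and at 71.4, 99.6, 119.7, 88.1 and 135 in CD90+/CD133+ cells, with CD90-/CD133- replicate 1 the lowest of its group. It had a log2 fold change of 0.33 (adjusted p = 0.0379 from limma) in CD90+/CD133- and 0.30 (adjusted p = 0.0565) in CD90+/CD133+ cells. Its call was lost in 10 of the 15 fits that left out a single array and held only without replicate 1 or 4 of CD90-/CD133- cells, replicate 1 of CD90+/CD133- cells, or replicate 4 or 5 of CD90+/CD133+ cells (highest adjusted p = 0.101). It was also lost without the block (adjusted p = 0.296), with the label code as the block and after quantile normalization. The other FZD4 probe set, near the floor, gave log2 fold changes of -0.08 and -0.12.

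FZD1, FZD2, FZD3 and the co-receptor LRP5 were well above the floor and passed in no comparison. Their log2 fold changes in CD90+/CD133- cells were 0.13, -0.04, -0.03 and 0.15, with 95% intervals of -0.42 to 0.69, -0.38 to 0.30, -0.17 to 0.11 and -0.05 to 0.34. These intervals hold for the brightest probe set of each gene. Of the 4 FZD3 probe sets only 1 had this sign, and they ranged from -0.03 to 0.39 in CD90+/CD133- cells. The second measured probe sets of FZD1, FZD2 and LRP5 had the opposite sign there, at -0.04, 0.17 and -0.07. FZD9 stayed between 19.3 and 28.9 in these cells and did not pass either. ROR1, an alternative receptor that binds WNT5A, was at 282 to 507 in CD90-/CD133- cells and at 173 to 418 and 169 to 497 in the CD90+ fractions. Its log2 fold changes of -0.42 and -0.46 did not pass (adjusted p = 0.261 and 0.216 from limma), although 4 of 5 pairs were lower in each comparison.

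**Figure D2:**
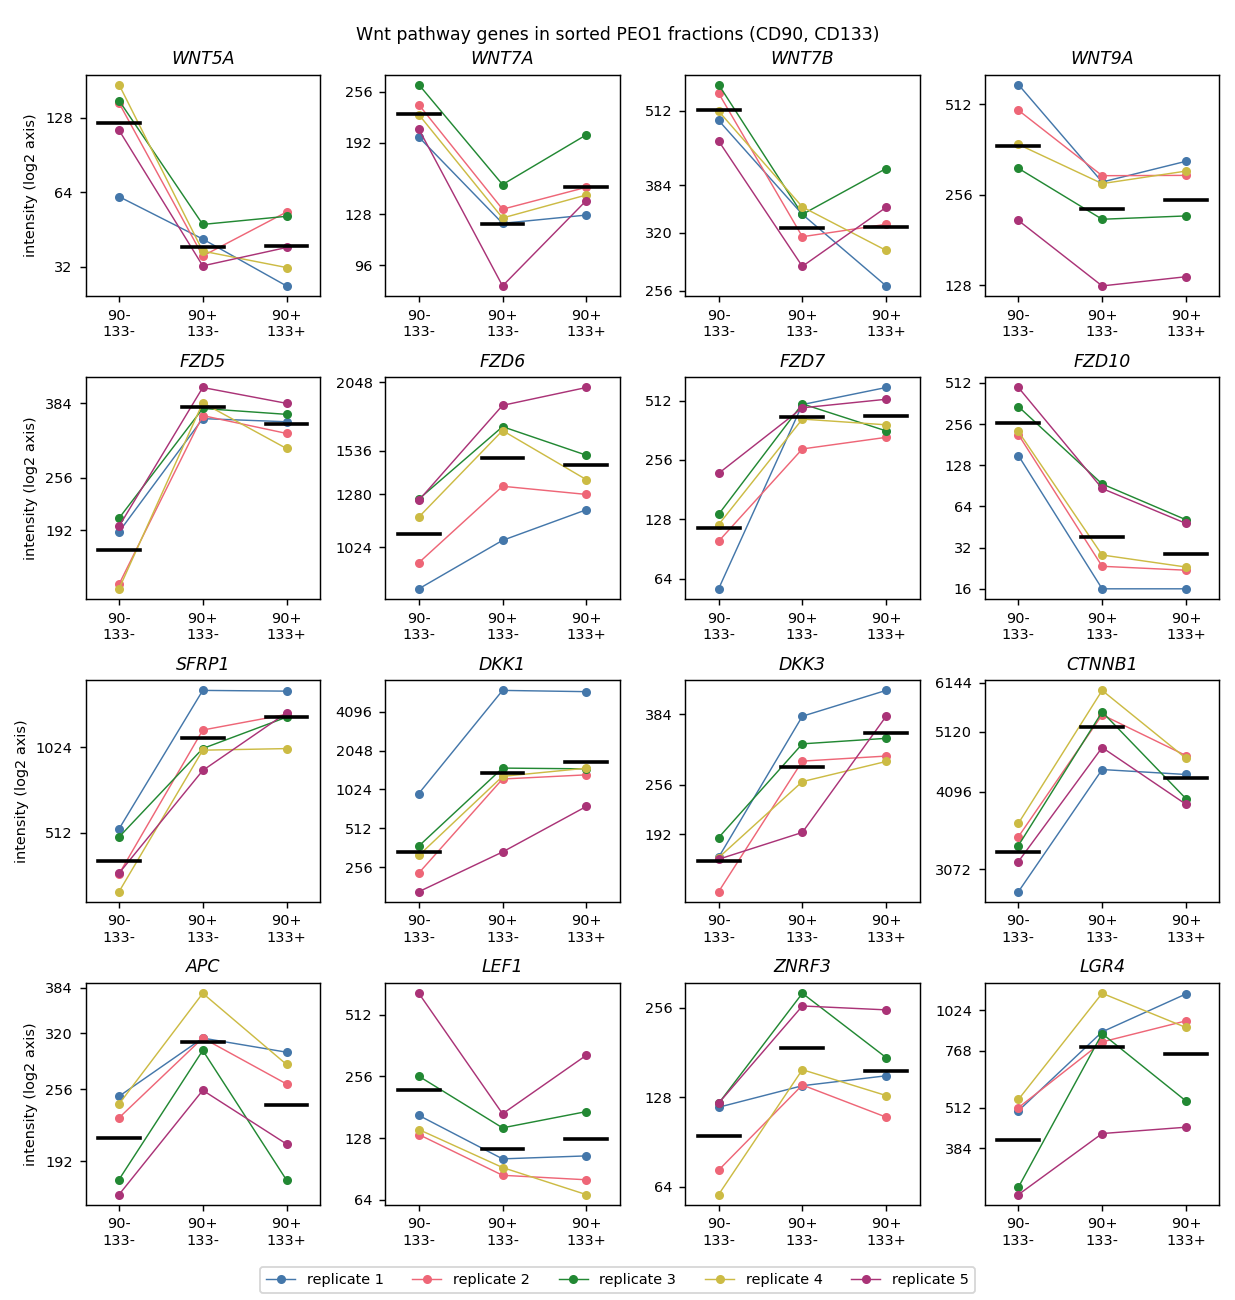
Intensity on a log2 axis of 16 Wnt pathway genes, with the CD90-/CD133- fraction at the left of each panel, CD90+/CD133- in the middle and CD90+/CD133+ at the right, with a coloured line for each replicate number and a black bar for the geometric mean of 5 arrays. FZD7, FZD5, SFRP1, DKK3 and CTNNB1 lie higher on all CD90+ arrays than on any CD90-/CD133- array, and WNT5A, WNT7B and FZD10 lie lower.

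Of 4 genes that govern how long receptors stay at the surface, LGR4 and ZNRF3 were higher in both CD90+ fractions, RNF43 did not pass and LGR5 was at the floor. LGR4, a receptor for R-spondins that protects Frizzled from removal, was at 501, 512, 291, 543 and 276 in CD90-/CD133- cells, at 878, 818, 867, 1155 and 426 in CD90+/CD133- cells and at 1149.7, 949, 537, 906 and 446 in CD90+/CD133+ cells. It was higher in 5 of 5 pairs although the groups overlapped, and replicate 5 was the lowest in each fraction. ZNRF3, a ubiquitin ligase that removes Frizzled and is itself induced by the pathway, was at 118, 72.8, 122, 60.3 and 122 in CD90-/CD133-, at 140.0, 141, 286, 158 and 259 in CD90+/CD133- and at 151, 109.8, 174, 129.7 and 252 in CD90+/CD133+ cells. Only its CD90+/CD133- arrays all lay above the CD90-/CD133- arrays.

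LGR4 rose 1.94-fold and 1.84-fold (adjusted p = 0.00161 and 0.00259 from limma, 0.0576 and 0.0848 without the block), and ZNRF3 1.97-fold and 1.65-fold (adjusted p = 0.00167 and 0.00865, 0.0319 and 0.119 without the block). A dimmer LGR4 probe set was nearly flat, at 32.9 and 34.8 in CD90-/CD133- and CD90+/CD133- cells. RNF43, the partner ligase of ZNRF3, had log2 fold changes of 0.33 and 0.26 that did not pass (adjusted p = 0.0600 and 0.135).

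Of the 4 secreted antagonists, the 3 above the floor rose in both CD90+ fractions, where 14.8% and 14.2% of all genes were called higher (25.3% and 24.6% of brighter genes). DKK1, which blocks LRP5 and LRP6 and is a classical target of beta-catenin, had intensities of 953, 230.4, 373, 316 and 165 in CD90-/CD133- cells, 6001, 1234, 1499.9, 1294 and 336 in CD90+/CD133- cells and 5868, 1329.6, 1479.8, 1498 and 756 in CD90+/CD133+ cells. In each fraction replicate 1 was the highest and replicate 5 the lowest, so the groups overlapped, yet each CD90+ array was above the CD90-/CD133- array of its number. The rise was 4.08-fold in CD90+/CD133- (log2 change 2.03 with a standard error of 0.212, adjusted p = 0.000141, limma) and 4.98-fold in CD90+/CD133+ cells (log2 change 2.32 with a standard error of 0.212, adjusted p = 7.19e-05). Without the block the adjusted p was 0.0715 and 0.0430.

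SFRP1, a decoy that binds Wnt ligands and Frizzled receptors, was at 528, 367, 495, 318 and 369 in CD90-/CD133- cells, at 1626, 1179, 1015, 1001 and 849 in CD90+/CD133- cells and at 1616, 1338, 1308, 1014 and 1355 in CD90+/CD133+ cells. No CD90+ array was as low as any CD90-/CD133- array. Its 2.71-fold and 3.22-fold rises (log2 change 1.44 with a standard error of 0.115, adjusted p = 3.50e-05 and log2 change 1.69 with a standard error of 0.115, adjusted p = 1.69e-05, limma) were seen in the same direction on all 4 of its probe sets, which ranged from 0.32 to 1.61 in log2 fold change in CD90+/CD133- cells.

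DKK3, a divergent member of the DKK family, was at 168, 138, 189, 168 and 166 in CD90-/CD133- cells, at 380.0, 293, 324, 261 and 194 in CD90+/CD133- cells and at 441, 302, 334, 293 and 379.8 in CD90+/CD133+ cells. All CD90+ arrays were above all CD90-/CD133- arrays, with replicate 5 of CD90+/CD133- cells closest to them. It rose 1.72-fold (adjusted p = 0.00391 from limma) and 2.10-fold (adjusted p = 0.000733). The next brightest DKK3 probe set gave 117.4, 261.6 and 359.3.

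Of the listed genes with a promoter window, DKK1 alone held the core motif of TCF/LEF factors. The letters CTTTGA were searched on both strands in windows of 300 bases around gene starts (250 before and 50 after) from RefSeq on GRCh38.p14, in which 32 of the 45 genes had a window. The motif was found in 1 of these 32 (3.12%), in 8 of 24 beta-catenin target genes with a window (33.3%) and in 15.5% of 27305 genes. The 2 places in the DKK1 window are shown because DKK1 changed most among the antagonists, and those of SP5, a transcription factor and target gene that rose too, for comparison. Capitals mark the motif, read 5′ to 3′ on the plus strand, where TCAAAG is its form on the opposite strand.
DKK1, chr10:52314120-52314149: gggtgaagagtgTCAAAGgccccccttcat
DKK1, chr10:52314174-52314203: cccctcccagcgCTTTGAaatcccatcccg
SP5, chr2:170715178-170715207: agctttgtggatTCAAAGgatttgctttcg
SP5, chr2:170715216-170715245: agagccgctattCTTTGAtgattgggtagc
SP5, chr2:170715242-170715271: tagcggcaaactTCAAAGccataaatcttc
The DKK1 motifs begin 149 and 95 bases before the gene start and those of SP5 147, 109 and 83 bases before it. SP5 lay at 56.5, 52.7, 40.3, 49.4 and 44.5 in CD90-/CD133-, 112, 76.2, 83.3, 59.6 and 60.6 in CD90+/CD133- and 74.6, 82.7, 74.1, 62.6 and 77.8 in CD90+/CD133+ cells, all CD90+ arrays above the others, with a rise of 1.57-fold and 1.53-fold (adjusted p = 0.00626 and 0.00892 from limma). A match of these letters is a description of the sequence, and factor binding was not measured.

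Beta-catenin itself and a scaffold of the complex that destroys it rose in CD90+/CD133- cells. CTNNB1 was at 2826, 3467, 3356, 3645 and 3161 in CD90-/CD133- cells, at 4452, 5458, 5517, 5977 and 4832 in CD90+/CD133- cells and at 4371, 4691, 3996, 4644 and 3913 in CD90+/CD133+ cells. The CD90+/CD133- arrays were highest and the groups did not overlap with CD90-/CD133- cells. It rose 1.59-fold (log2 change 0.67 with a standard error of 0.0568, adjusted p = 4.79e-05, limma) and 1.31-fold (log2 change 0.39 with a standard error of 0.0568, adjusted p = 0.000826), and the other probe sets of the gene were also higher, with log2 fold changes of 0.95 and 0.43 in CD90+/CD133- cells.

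APC, the scaffold, was at 249.0, 228, 179, 241 and 168 in CD90-/CD133- cells, at 314, 314, 299, 375 and 255 in CD90+/CD133- cells and at 297, 262, 178, 283 and 206 in CD90+/CD133+ cells. The CD90+/CD133- arrays lay just above all CD90-/CD133- arrays, while CD90+/CD133+ cells overlapped with them. The rise in CD90+/CD133- cells was 1.47-fold (log2 change 0.55 with a standard error of 0.0789, adjusted p = 0.000766, limma) and was seen on all 5 APC probe sets (log2 fold change 0.42 to 0.77). In CD90+/CD133+ cells the log2 fold change of 0.19 did not pass (adjusted p = 0.105). With the GAPDH gap as a covariate the log2 fold change in CD90+/CD133- cells was 0.51 for APC, which did not pass (adjusted p = 0.0728).

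AXIN2, a scaffold and a much used readout of beta-catenin activity, was at 33.6, 44.9, 68.4, 41.0 and 185 in CD90-/CD133- cells, at 46.2, 65.9, 361, 85.9 and 196 in CD90+/CD133- cells and at 28.0, 52.8, 178, 74.5 and 408 in CD90+/CD133+ cells. Its values spread widely within each fraction, from replicate 1 at the lowest to replicate 3 or 5 at the highest. Its log2 fold changes of 0.91 (95% interval 0.12 to 1.70) and 0.67 (-0.12 to 1.46) did not pass (adjusted p = 0.0801 and 0.201 from limma), and the other 3 AXIN2 probe sets were dim and nearly flat. AXIN1, its constitutive relative, had 0.20 and 0.19 and did not pass (adjusted p = 0.124 and 0.132). GSK3B, the kinase of the complex, had 0.18 and -0.24 and did not pass (adjusted p = 0.257 and 0.129).

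At the nuclear end, LEF1 fell while its relatives TCF7L1 and TCF7L2 rose slightly. LEF1, a TCF/LEF factor that beta-catenin also induces, was at 165, 133.1, 256, 141 and 651 in CD90-/CD133- cells, at 101, 84.2, 143, 91.9 and 168 in CD90+/CD133- cells and at 105, 80.1, 172, 67.8 and 324 in CD90+/CD133+ cells. Replicate 5 stood above the rest in each fraction and the groups overlapped, but each CD90+ array was below the CD90-/CD133- array of its number. The fall was 1.94-fold (log2 change -0.95 with a standard error of 0.199, adjusted p = 0.00590, limma) and 1.75-fold (log2 change -0.80 with a standard error of 0.199, adjusted p = 0.0142). It did not pass without the block (adjusted p = 0.224 and 0.336), nor did that in CD90+/CD133+ cells when number 2 or 4 was left out in all fractions (highest adjusted p = 0.0556). With the GAPDH gap as a covariate its log2 fold change in CD90+/CD133- cells was -0.63 (adjusted p = 0.359). A dimmer LEF1 probe set was flat, at 29.9, 30.1 and 31.6.

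TCF7L2, a main partner of beta-catenin in epithelia, was at 958, 1046, 967, 1150.0 and 1240.0 in CD90-/CD133- cells, at 1009.5, 1357, 1577, 1586 and 1932 in CD90+/CD133- cells and at 1177, 1129, 1222, 1258 and 1676 in CD90+/CD133+ cells. Replicate 5 was the highest in each fraction. It rose 1.37-fold in CD90+/CD133- cells (adjusted p = 0.00560 from limma, 0.0620 without the block), with all 7 of its probe sets higher (log2 fold change 0.17 to 1.02). In CD90+/CD133+ cells its log2 fold change of 0.26 did not pass (adjusted p = 0.0656). TCF7L1, mostly a repressor, was at 47.5, 51.9, 68.3, 68.1 and 73.3 in CD90-/CD133- cells, at 58.4, 63.2, 74.2, 85.9 and 94.6 in CD90+/CD133- cells and at 52.2, 58.0, 80.3, 72.4 and 98.0 in CD90+/CD133+ cells. The fractions overlapped, but it was higher in 5 of 5 pairs in either comparison. It rose by 0.28 and 0.21 on the log2 scale (adjusted p = 0.00442 and 0.0201, 0.400 and 0.588 without the block). The call in CD90+/CD133+ cells was lost without CD90+/CD133+ replicate 3 or CD90-/CD133- replicate 5 (highest adjusted p = 0.0583). TLE1, a co-repressor that TCF factors recruit, had 0.00 and 0.03, with 95% intervals of -0.22 to 0.23 and -0.19 to 0.26, and passed in neither.

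Within the CD90+ cells, CD133 separated few Wnt genes. CTNNB1 and APC were lower when CD133 was present, by 0.28 and 0.36 on the log2 scale (standard error 0.0568 and 0.0789, adjusted p = 0.0363 and 0.0422 from limma, lower in 5 of 5 pairs each), and none of the 42 was higher. By unadjusted p under 0.05 there were 8 in all, a count that cannot be set against the shares that follow, which are by adjusted p. Of all genes 2.30% were higher and 2.31% lower, and without the block 0.258% and 0.223%, when neither CTNNB1 nor APC passed (adjusted p = 0.192 and 0.373). The called share of the list was 4.76%, against 4.61% of all genes, and that of its 31 brighter genes 6.45%, against 8.01%. The GAPDH gap given above was wider in the CD90+/CD133- than the CD90+/CD133+ fraction, and with it as a covariate neither gene passed (adjusted p = 0.775 and 0.749). None of all 19775 genes passed in that fit, so it cannot set these genes apart from the rest.

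Both calls were lost in most fits that left out a single array. The log2 fold changes stayed at -0.34 to -0.23 for CTNNB1 and -0.42 to -0.29 for APC in these fits. Calls over all genes moved too, from 455 higher and 457 lower. They became 29 and 41 without CD90+/CD133- replicate 4, and 476 and 547 without CD90+/CD133+ replicate 1. CTNNB1 passed in 5 of the 15 fits without an array, those without replicate 1 of any fraction or without replicate 3 or 5 of CD90-/CD133- cells, and reached an adjusted p of 0.103 in the others. APC passed in 2 of 15, those without replicate 1 of a CD90+ fraction, and reached 0.113. All 5 APC probe sets were lower, by log2 fold changes of -0.85 to -0.28. Of the 3 CTNNB1 probe sets 2 were lower and 1 was higher (-0.39 to 0.14), and with the mean of its probe sets CTNNB1 did not pass (-0.17, adjusted p = 0.191). GSK3B had a log2 fold change of -0.42 (95% interval -0.65 to -0.18) that did not pass (adjusted p = 0.0591). For the genes with large changes against CD90-/CD133- cells, the differences between the CD90+ fractions were 0.29 for DKK1 (95% interval -0.20 to 0.77), 0.25 for SFRP1 (-0.01 to 0.51), 0.02 for FZD7 (-0.66 to 0.69), -0.42 for FZD10 (-0.85 to 0.01) and 0.02 for WNT5A (-0.51 to 0.55). None of these passed, and the intervals for FZD7 and WNT5A leave room for differences of over 0.5 either way.

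Several of the 42 genes had their highest or lowest array under the same replicate number in each fraction. DKK1 was highest in replicate 1 and lowest in replicate 5 of each fraction. LEF1 and WNT6 were highest in replicate 5 of each fraction, and AXIN2, WNT10A and FZD10 were lowest in replicate 1 of each. Of 38 genes without ties, 12 had their highest array under the same number in all 3 fractions (31.6%), against 26.3% of all 14877 genes without ties and 32.1% of the 9978 brighter ones. The lowest array had the same number for 13 (34.2%), against 25.3% and 32.2%.

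**Figure D3:**
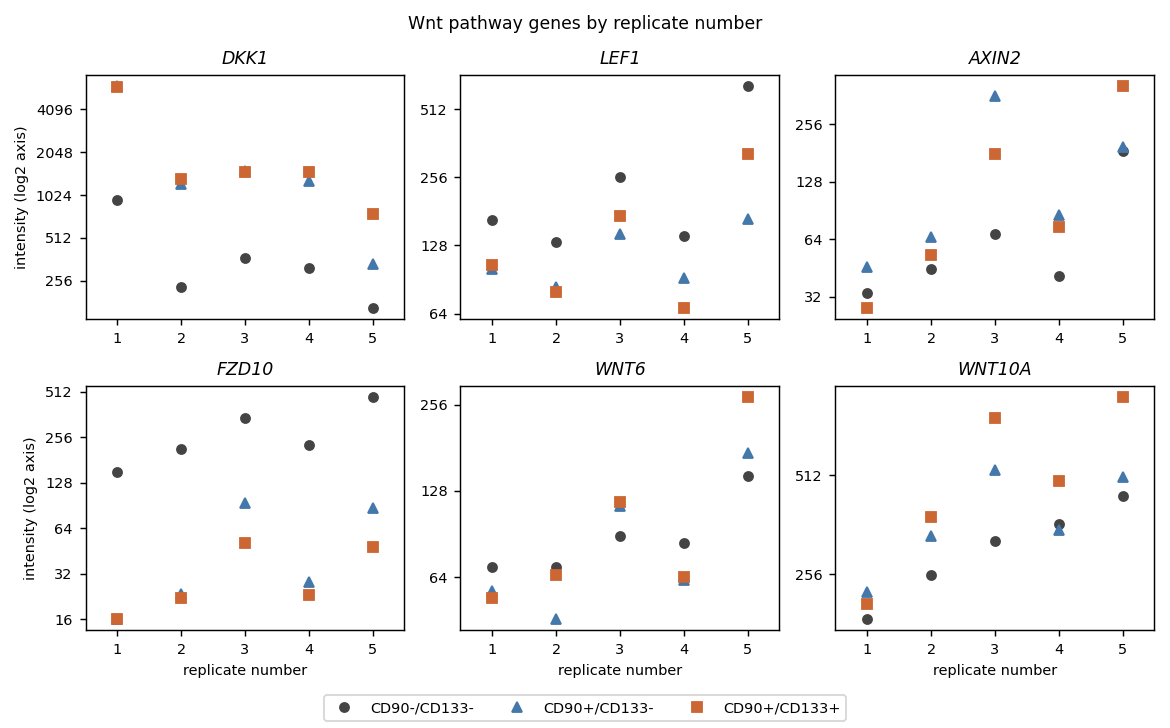
Intensity on a log2 axis of 6 Wnt pathway genes against replicate number, with circles for CD90-/CD133-, triangles for CD90+/CD133- and squares for CD90+/CD133+ cells. DKK1 is highest at number 1 and lowest at number 5 in each fraction, while FZD10, AXIN2 and WNT10A are lowest at number 1.

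Further genes of the pathway were taken from 9 lists by role, 159 measured genes that are not among the 45. In CD90+/CD133- cells 40 of them were higher and 28 lower, in CD90+/CD133+ cells 34 were higher and 36 lower, and between the CD90+ fractions none was higher and 7 were lower. The called shares were 42.8%, 44.0% and 4.40%, against 32.4%, 31.2% and 4.61% of all genes. Of the 102 brighter genes among them 54.9%, 55.9% and 6.86% were called, against 52.7%, 50.7% and 8.01% of all brighter genes. Median log2 fold changes were 0, 0 and -0.03.

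In Wnt processing and secretion, 2 of 11 genes rose and 3 fell in CD90+/CD133- cells. Of all genes 14.8% were called higher and 17.6% lower in these cells, and of brighter genes 25.3% and 27.5%. SULF2, a sulfatase that trims heparan sulfate and can free bound Wnt, was at 149.6, 196, 375, 162 and 140.3 in CD90-/CD133- cells, at 19.1, 22.4, 35.9, 23.4 and 37.2 in CD90+/CD133- cells and at 26.3, 28.5, 35.1, 23.0 and 28.1 in CD90+/CD133+ cells. The groups were widely apart, and the fall was 7.15-fold and 6.82-fold (adjusted p = 1.78e-05 and 2.00e-05 from limma). GPC4, a glypican that carries heparan sulfate, fell from a geometric mean of 53.0 to 16.8 and 16.3, where 3 and 4 of 5 arrays were at the floor. TMED2, a cargo receptor of the early secretory route that serves many proteins, rose from 1726 to 4893 and 4446. SDC1, the proteoglycan syndecan-1, rose by 0.51 and 0.59 on the log2 scale (adjusted p = 0.00139 and 0.000620 from limma, 0.249 and 0.173 without the block). Of 16 further secreted and membrane regulators, CTHRC1 rose in CD90+/CD133- cells. It went from the floor on all CD90-/CD133- arrays to between the floor (1 array) and 144 (adjusted p = 0.0284 from limma, 0.106 without the block). In CD90+/CD133+ cells CTHRC1 rose by 1.99 on the log2 scale (adjusted p = 0.0123 from limma, 0.0526 without the block). KREMEN1, the DKK receptor, fell in CD90+/CD133- cells (-0.68 on the log2 scale, adjusted p = 0.00109, 0.0869 without the block). Its fall was larger in CD90+/CD133+ cells (-1.06, adjusted p = 9.88e-05 from limma, 0.0109 without the block). In CD90+/CD133+ cells TMEM131L and the trophoblast glycoprotein TPBG fell as well (-0.38 and -0.31), TMEM131L not without the block (adjusted p = 0.188). Of the other ligands 1 of 5, WNT10B, fell, and of 11 R-spondins and co-receptors RECK and RYK rose and RSPO4 fell in CD90+/CD133- cells, of which RECK and RYK did not pass without the block (adjusted p = 0.132 and 0.122).

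Among 23 co-activators and repressors of beta-catenin, 7 rose and 3 fell in CD90+/CD133- cells. This count and those of the lists below stand beside 14.8% of all genes called higher and 17.6% lower there. Of brighter genes 25.3% were called higher and 27.5% lower, and nothing particular to these lists is read from the counts. SOX7, a transcription factor that can restrain beta-catenin, was at 72.5, 59.9, 221, 80.7 and 107 in CD90-/CD133- cells, at 1785, 1813, 2037, 2076 and 1268 in CD90+/CD133- cells and at 2099, 1621, 1335, 1320.3 and 1218 in CD90+/CD133+ cells. Its levels in the CD90+ fractions were far above those of CD90-/CD133- cells on every array. TLE4, a TCF co-repressor, rose by 1.27 and 1.26 on the log2 scale (adjusted p = 4.51e-05 and 4.63e-05 from limma), HIPK2, a kinase that can act on these factors, by 1.06 and 0.94, and CBY1, which binds beta-catenin and moves it out of the nucleus, fell 1.54-fold in CD90+/CD133- cells (adjusted p = 0.00129). Of 27 cytoplasmic transducers, 9 rose and 5 fell, with TNKS2, a tankyrase that marks AXIN for removal, up 1.63-fold and the kinase CSNK1E down 1.61-fold. FRAT1, which binds and inhibits GSK3, rose by 0.73 (adjusted p = 0.00119, 0.100 without the block), and RNF146, which ubiquitinates AXIN marked by tankyrase, fell by 0.64 and 0.76 on the log2 scale. In CD90+/CD133+ cells the phosphatase subunit PPP2R5A rose by 0.70 and the kinase CSNK2A1 fell by 0.72. Of 30 genes of planar polarity and other branches without beta-catenin, 9 rose, among them CELSR1 (2.10-fold), and 10 fell, among them DAAM2 (2.26-fold) and PLCB1 (at least 2.77-fold, since it was at the floor on all 5 arrays of either CD90+ fraction). PLCB4 rose in both CD90+ fractions (0.85 and 1.01 on the log2 scale) and INTU fell in CD90+/CD133+ cells (-0.89). Of 7 junction partners of beta-catenin CTNNA1, the link to actin, rose (0.48) and JUP, a relative of beta-catenin, fell (-0.42) in CD90+/CD133- cells, neither of which passed without the block (adjusted p = 0.0672 and 0.0869), and CDH2, which encodes N-cadherin, rose in CD90+/CD133+ cells (0.78). The 7 genes that were lower in CD90+/CD133+ than CD90+/CD133- cells were CARM1 (-0.38), ROCK1 (-0.37), SMARCA4 (-0.29), CSNK2A1 (-0.28), ROCK2 (-0.26), TPBG (-0.25) and CTNNA1 (-0.20), and of these ROCK1 alone passed without the block (adjusted p = 0.0453).

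Known targets of beta-catenin and TCF did not all move together. Of 37 measured targets, 11 rose and 4 fell in CD90+/CD133- cells and 13 rose and 6 fell in CD90+/CD133+ cells. In these comparisons 14.8% and 14.2% of all genes were called higher and 17.6% and 17.0% lower. Of all brighter genes 25.3% and 24.6% were called higher and 27.5% and 26.0% lower. Without the targets that are among the 45 listed genes, 9 rose and 3 fell of 31, and 11 rose and 5 fell. The median log2 fold change of these 31 was 0.11 and 0.16, and between the CD90+ fractions none passed. L1CAM, an adhesion molecule, was at 66.9, 141, 201, 188 and 368 in CD90-/CD133- cells, at 614, 722, 1501, 998 and 2084 in CD90+/CD133- cells and at 509, 753, 1474, 866 and 2529.6 in CD90+/CD133+ cells, a rise of 6.38-fold and 6.23-fold (adjusted p = 4.16e-06 and 4.23e-06 from limma). The groups were apart, with replicate 1 lowest and replicate 5 highest in each.

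BMP4, a growth factor, rose 4.22-fold and 4.78-fold, and MMP7, a matrix protease, 3.08-fold and 3.14-fold, though MMP7 did not pass without the block (adjusted p = 0.245 and 0.243). VEGFA (3.04-fold) and ID2 (2.27-fold), which other pathways also induce, rose as well. TCF4 (a helix-loop-helix factor, not the product of TCF7L2), CD44, PLAUR and LEF1 were the targets that fell in CD90+/CD133- cells, TCF4 by 1.12 and CD44 by 0.39 on the log2 scale. CD44 and PLAUR did not pass without the block (adjusted p = 0.158 and 0.633). AXIN2, RNF43 and NKD1, which the pathway induces in many tissues, did not pass.

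**Figure D4:**
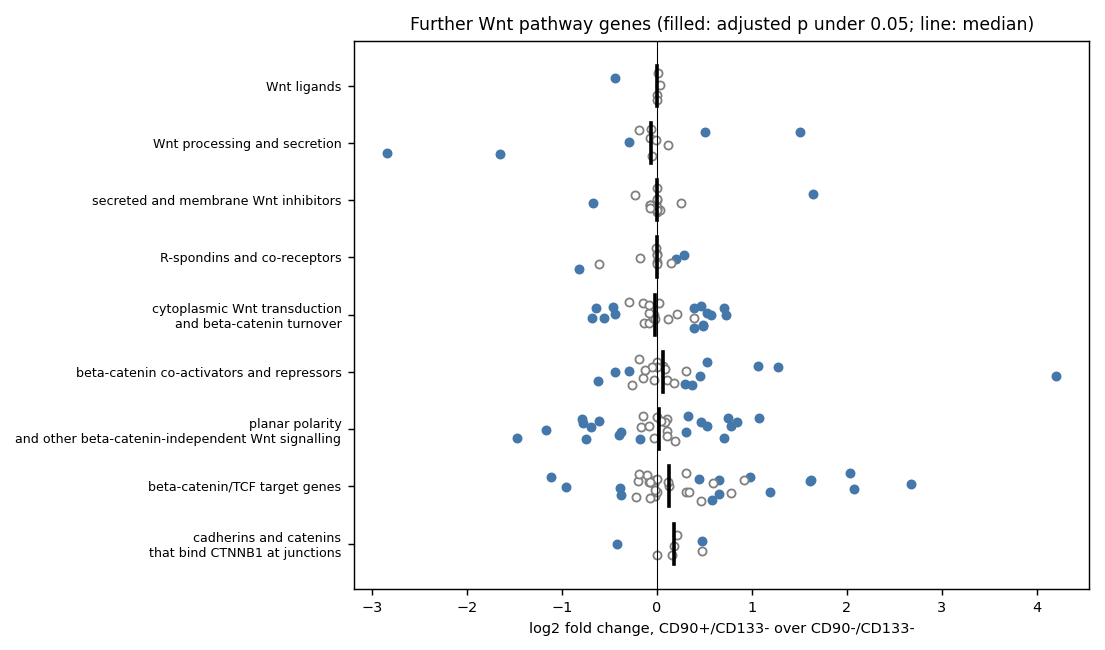
Log2 fold change in CD90+/CD133- over CD90-/CD133- cells (horizontal axis) of further Wnt pathway genes in 9 lists, with a point for each gene, filled at an adjusted p under 0.05, and a black line for the median of each list. Medians lie close to 0, with SOX7 at 4.20 and SULF2 at -2.84 as the extremes.

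Changes of chromosomal neighbours were set beside those of the listed genes, as medians of the 30 nearest brighter genes in CD90+/CD133- over CD90-/CD133- cells. The median over all brighter genes was -0.03. The neighbours of CTNNB1 on chromosome 3 stood at 0.56, near its own 0.67, and those of DKK1 on chromosome 10 at 0.51, against 2.03. Neighbours of LRP6 on chromosome 12 stood at -0.51, against -0.29. Neighbours of FZD10, also on chromosome 12, stood at 0.88 while FZD10 itself was at -2.75. Around FZD5 and FZD7 on chromosome 2 the median was 0.27, and around WNT5A on chromosome 3 it was -0.19. The difference between a gene and its neighbours was not tested.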

How the data were processed

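Biotin-labelled RNA of 15 sorted samples was hybridized by the authors to Affymetrix HG-U133 Plus 2.0 arrays. The deposited intensities are on a linear scale, a single value for each probe set, and cross-correlation was the normalization of the authors. How probes were summarised is not given in the sources used here. Among these values the lowest was 5, and median intensity was 29.4 to 32.4 with 32.7% to 34.5% of probe sets under 16. The number of arrays limits the precision.

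Here log2 was taken after raising values under 16 to that floor, which understates changes of dim genes. Of 54675 probe sets, 41097 named a single gene, 1801 several and 11777 none in the annotation used. After control probe sets were set aside, the brightest probe set by mean stood for each of 19775 genes. Groups were compared with limma 3.58.1 in R 4.3.3 (all 15 arrays, replicate number as a block, 2-sided, Benjamini-Hochberg over all genes). The block was used because same-numbered arrays deviated together, at correlations of 0.142 to 0.799 over the comparisons, although the highest between different numbers (0.173, 0.185 and 0.346) exceeded the lowest of the same number (0.142, 0.183 and 0.297) and no label says what a number marks. The methods name a 1.5-fold threshold and no array test. The members and lists were chosen with earlier results of these data known. All listed genes are accounted for, and up to 4 called genes with the largest change were named from each further list, with SP5, VEGFA, ID2, TCF4, CD44, PLAUR and NKD1 added after their values were seen. The design text speaks of triplicates while labels number 5, and the labels were used. Calculations were tested on simulated data. Alternatives were other fits, blocks, normalizations, floors, filters and probe-set rules and leaving out arrays.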

Additional observations from a re-analysis of the deposited data

Results flagged for a closer look

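Levels of the listed genes were checked for an array far from the other 4 of its fraction, by the gap to its nearest neighbour over the range of the group. Of 115 groups of 5 arrays with any spread, 4 had such an array, and chance gives about 1 in 20 groups. WNT2 stood at 17.0 on CD90-/CD133- replicate 3, with the other 4 arrays at the floor. FZD4 stood at 68.9 on CD90-/CD133- replicate 1, against 83.1 to 87.1 on the others. LRP6 stood at 512 on CD90+/CD133+ replicate 5, against 348.8 to 386 on the others. TCF7L2 stood at 1676 on the same array, against 1129 to 1258.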

How the results depend on the processing

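No result changed direction under the alternatives run, and counts of listed genes changed by over 1.5 times only as follows. In CD90+/CD133- cells, the 13 higher genes became 7 with no replicate block, 6 with no block and only the arrays compared, 6 by the methods' t-test with Benjamini-Hochberg adjustment and 5 with the GAPDH gap as a covariate, which was chosen after seeing the data. The 8 lower genes became 5 with no block (in all arrays or only those compared), with the label code as a block, by the methods' t-test and with the GAPDH gap. In CD90+/CD133+ cells, the 11 higher genes became 6 with no block (in all arrays or only those compared) and by the methods' t-test, and the 8 lower became 4 in those 3 fits and 5 with the label code as a block or by 1.5-fold of averages. Between the CD90+ fractions the 2 lower genes became 0 with no block, with only the arrays compared (with or without the block), with the label code, by the methods' t-test and with the GAPDH gap, and 1 with median centring, a floor of 64 or 1.5-fold of averages. There 1 gene was higher with brighter genes alone or with genes at the floor on all arrays left out, a change chosen after seeing the data that also tests fewer genes. Fits without a single array, or without a whole replicate number, found 12 to 14 higher and 7 to 9 lower in CD90+/CD133- cells, 10 to 12 and 7 to 9 in CD90+/CD133+ cells, and 0 higher and 0 to 4 lower between the CD90+ fractions, with 4 when CD90+/CD133- replicate 1 was left out. By unadjusted p the methods' t-test gave 12 higher and 5 lower, 9 and 6, and 1 and 3. The cause of these changes was not tested.

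Over all genes, median centring turned the split of CD90+/CD133+ against CD90-/CD133- cells from 2804 higher and 3359 lower to 3366 and 2883, and that between the CD90+ fractions from 455 and 457 to 917 and 342. The latter became 51 and 44 with no block and 216 and 206 with the label code as a block. With only the arrays compared it became 11 and 8 with the block and 3 and 7 without it. By the methods' t-test or with the GAPDH gap no gene of all was called there. Same-numbered arrays correlated at 0.142 or more in each comparison, and the replicate block pairs them. Genes near the floor, such as WNT2B, WNT4, WNT11 and FZD9, can show only part of a fall.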
